A study of Rattus norvegicus with 18 samples.

Results

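The comparison is between kidney tubule cells that had been exposed to aristolochic acid (AA) for 24 h and cells exposed to it for 6 h. It describes how treated cells differed between these times. It rests on 6 of the 18 arrays of the series, 3 of each time, taken by their titles. Genes were taken from probe sets (groups of short probes for 1 transcript) to which the platform annotation gives a single symbol, and a gene with several was represented by the probe set with the highest mean over the 18 arrays. This gave 14217 genes, of which 9015 reached log2 4 on at least 3 arrays and were tested.

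The cells were NRK-52E, an established rat line of proximal tubule origin, labelled as strain Osborne-Mendel and grown in medium with fetal calf serum. They were brought to confluence in 6-well plates and then exposed to 1.65 µM AA, dissolved so that the medium held 0.1% DMSO, or to the solvent at the same share. Every group therefore carries DMSO. The labels describe the dose as a weakly inhibitory one, chosen from an assay at 72 h. RNA was taken at 6, 24 or 72 h, and each of the 6 groups (AA or DMSO at each time) has 3 samples that the labels call biological replicates. They state that separate studies were run at each time, and give neither plate nor day for them. The p-values therefore describe only how much these samples varied, which may be in part technical. Time and study coincide in AA and in DMSO, so a change between times cannot be told apart from a difference between studies. The model is a single cell line, with neither blood nor immune cells around it.

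Aristolochic acid is a nitrophenanthrene carboxylic acid of Aristolochia plants. Enzymes in the kidney reduce its nitro group, and the product binds to purine bases of DNA as bulky adducts that stall replication and transcription. Cells that meet damage or crowding leave the cell cycle by shutting down the E2F genes needed to copy DNA and, through the DREAM complex, the genes of mitosis. Cells given fresh medium also go through a wave of growth factor and serum responses and have their circadian clocks set in step, so a change with time in treated cells need not come from the compound. For this reason the same change in solvent cells, DMSO 24 h against DMSO 6 h, is given for the gene lists and some of the genes. A gene given without it is not thereby shown to change in AA alone. The difference of both changes has its own test.

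Values are the authors' deposited log2 expression values, and a difference of 1 is 2-fold. A value after ± is the SD of 3 arrays for a level and the standard error for a log2 fold change, which is always 24 h minus 6 h. Values near log2 2 are the floor of the background correction, so a group mean under log2 4 is called near the floor. A gene said to rise or fall passed limma's moderated test at a Benjamini-Hochberg adjusted p under 0.05 over all genes tested. Other genes are given with values only. In bulk RNA, fewer cells of a kind and less RNA per cell cannot be told apart. Genes that complete a count of 5 or fewer, and those whose promoters are printed, were chosen after their values were seen.

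Array medians lay between log2 4.01 and 4.19 and replicates correlated with r between 0.996 and 0.999 across probe sets. On the first component of the 6 arrays, with 78.4% of their variance, the AA 6 h arrays lay at -24.16, -25.19 and -32.57 and the AA 24 h arrays at 27.74, 26.7 and 27.48. On the second, with 9.85%, AA 6 h replicate 3 stood apart at -17.88, with the other AA 6 h arrays at 14.07 and 6.62. The same array had the smallest 3' minus 5' difference of the actin control probe sets, 0.98 against 1.27 and 1.26. This is a measure of RNA quality in which a larger difference goes with less intact RNA. It was also the lowest of its group for the GAPDH (-0.305) and hexokinase (0.873) control probe sets. Counts of gene lists that this array moves by more than 1.5 times are given with and without it, but medians only in part. For example, the median of cholesterol synthesis genes was -0.267 with it and -0.003 without it. That of fatty acid synthesis genes was -0.112 and 0.048, and that of TGF-beta pathway genes 0.157 and 0.057. Of 23 proximal tubule markers on the array, 4 had a mean of log2 4 or more at both times in AA (Slc4a4, Ggt1, Mme and Gatm), while the endocytic receptor genes Lrp2 and Cubn and the transporter genes Slc34a1, Slc5a2 and Slc22a6, which define the segment, stayed at or under log2 2.67 on all 18 arrays. Of 25 genes of epithelial and mesenchymal identity, 13 had such a mean at both times. They were the epithelial Krt8, Ocln, Tjp1 and Jup, the mesenchymal Vim, Fn1, Snai1, Twist1, Zeb1, Zeb2, S100a4 and Acta2, and Cdh2. The last, N-cadherin, serves as a marker of either kind. The other 12, Cdh1, Epcam and Krt18 among them, did not reach that level. Of other cell types, 0 of 11 loop, distal and collecting duct markers and 0 of 8 leukocyte markers reached that level, 1 of 6 endothelial markers did (Tek), and 4 of 10 fibroblast markers did (Col1a1, Col1a2, Col3a1 and Postn).

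Between 6 h and 24 h, 4729 of 9015 genes changed in AA cells, 52.5% of those tested. Of these, 2252 (25% of genes tested) were higher and 2477 (27.5%) lower at 24 h, and the median size of a called change was 0.53 on the log2 scale. An increase of at least 2-fold was called for 331 genes (3.67%) and a decrease for 371 (4.12%), and 39 and 30 of them were near the floor in 1 group. The 3 arrays of one time did not overlap the 3 of the other for 5349 genes (59.3%). The median over all genes tested was -0.02, so the balance of directions depends on scaling: with each array centred on its median, 37.2% of the calls were higher, against 47.6% as deposited. Lists of genes are read against these shares.

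Most of this change was also found in solvent cells. In DMSO, 2549 genes (28.3%) rose and 2747 (30.5%) fell over the same hours. In both, 3781 genes changed in the same direction, which is 80% of the AA calls and 71.4% of the DMSO calls, and 15 changed in opposite directions. The comparisons share no arrays, and across genes, which are not independent replicates, their log2 fold changes correlated with r = 0.877. The part of time and that of the separate studies in this shared change cannot be told apart. The scatter of the AA change against the DMSO change shows mitosis genes above the line of equal change.

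**Figure D1:**
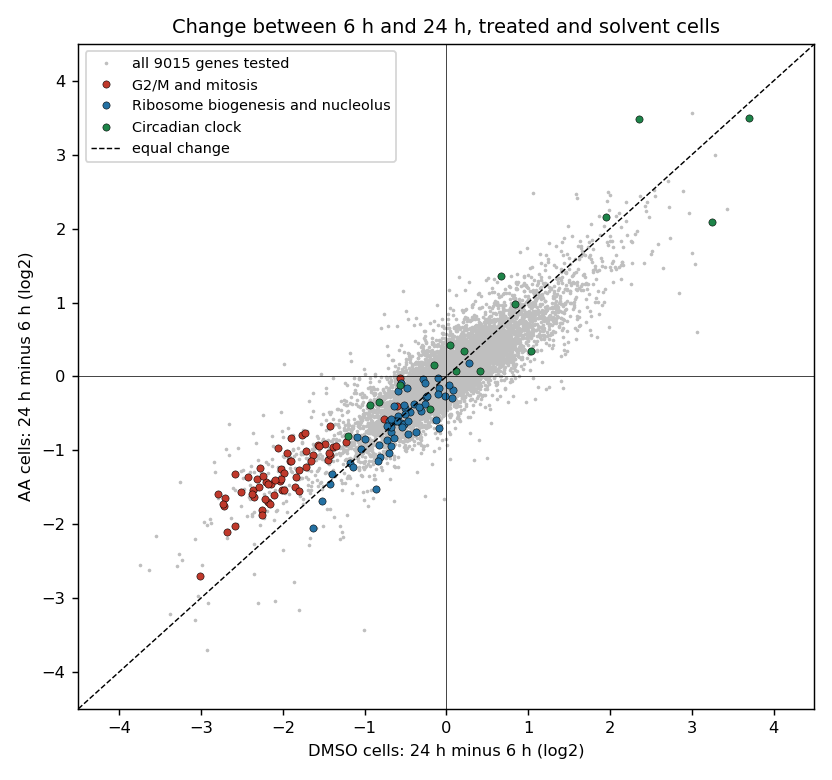
Log2 fold change from 6 h to 24 h in DMSO cells (horizontal) and AA cells (vertical) for the 9015 genes tested, 1 point per gene, with mitosis, ribosome biogenesis and clock genes coloured and a dashed line of equal change. All 61 mitosis genes lie above the line (a smaller fall in AA than in DMSO), while ribosome biogenesis genes lie on both sides of it.

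The largest coordinated fall was in genes of mitosis. Of 61 tested genes of G2 and mitosis, 60 fell and 0 rose, with a median log2 fold change of -1.36, and 47 fell by at least 2-fold. In DMSO all 61 fell, with a median of -2.02. Cdca8, the borealin subunit that takes Aurora B kinase to centromeres, read 8.77, 8.83 and 9.54 at 6 h and 6.18, 6.24 and 6.62 at 24 h. The groups were separated by more than 2 log2 units, and the fall was 6.48-fold (log2 fold change -2.70 ± 0.22, limma adjusted p = 1.44e-08, n = 3). Plk1, the kinase that drives entry into mitosis, read 8.67, 9.01 and 9.64 at 6 h and 6.90, 7.17 and 6.92 at 24 h. Every 24 h array lay below every 6 h array, at -2.11 ± 0.22 (adjusted p = 2.32e-07, n = 3). The spindle kinase gene Aurka fell by 2.02, the centromere gene Cenpn by 1.88, the mitotic cyclin gene Ccnb1 by 1.81 and the proliferation marker gene Mki67 by 1.22. The exception was Smc4, a condensin subunit, whose arrays overlapped between times (log2 fold change -0.03, adjusted p = 0.928).

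Genes of the G1/S transition and DNA replication fell nearly as often, 48 of 53 with 0 rising, with a median of -0.94 (in DMSO 52 fell, median -1.51). Clspn encodes claspin, which carries the replication checkpoint signal from ATR to CHK1. It read 7.65, 7.53 and 6.98 at 6 h and 5.26, 5.15 and 5.24 at 24 h, a fall without overlap of 4.49-fold (log2 fold change -2.17 ± 0.23, adjusted p = 3.13e-07, n = 3). Mcm5, a subunit of the replicative helicase, read 9.57, 9.69 and 9.62 at 6 h against 8.41, 8.41 and 8.36 at 24 h, a narrow spread within each time (-1.23 ± 0.13). Further falls were in Gins4, a helicase cofactor (-1.66), and in Chaf1b and Chaf1a, which load histones onto new DNA (-1.65 and -1.52). The 5 that did not pass were E2f1 (-0.41, adjusted p = 0.0952), Cdc25a, Rfc1, Cdt1 and Slbp. Myb-family factor Mybl2, which switches on late cell cycle genes, read 7.82, 7.86 and 8.26 at 6 h and 5.28, 5.90 and 5.29 at 24 h. The times were separate, at -2.49 ± 0.30, and the mean over its probe sets gave -1.62.

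Promoters of both groups were searched for the elements through which such genes are known to be controlled. Printed are windows of 60 bases on the gene's strand from RefSeq promoters of rat assembly GRCr8, which run from 250 bases before to 50 after the gene's start. They were found for 7623 of the tested genes by gene number. The first 5 windows show the cell cycle homology region, searched as TTTGAA on both strands and in capitals. It was found in 34 of 54 mitosis promoters (63.0%) and in 11.2% of all tested promoters.
Cdca8, chr5:142483261-142483320, minus strand: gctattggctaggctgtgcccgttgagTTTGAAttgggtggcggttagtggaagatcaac
Plk1, chr1:186147637-186147696, plus strand: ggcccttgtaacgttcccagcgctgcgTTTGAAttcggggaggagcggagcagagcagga
Mad2l1, chr4:97236499-97236558, plus strand: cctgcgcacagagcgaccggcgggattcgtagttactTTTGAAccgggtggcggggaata
Bub1b, chr3:126017036-126017095, plus strand: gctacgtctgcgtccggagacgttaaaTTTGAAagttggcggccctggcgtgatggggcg
Prc1, chr1:143659436-143659495, plus strand: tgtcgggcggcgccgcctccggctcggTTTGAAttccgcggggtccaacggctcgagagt
Mad2l1 and Bub1b belong to the spindle checkpoint, and Prc1 bundles microtubules at the midzone. They fell by 1.73, 1.69 and 1.67 on the log2 scale. The CCAAT box, on both strands, was in 72.2% of mitosis promoters and in 38.7% of all.
The E2F site, searched as TTTGGCGC or TTTCGCGC on both strands, was in 16 of 44 replication promoters (36.4%) and in 1.7% of all. It is in capitals in these windows, in Clspn and Pole2 read from the other strand.
Clspn, chr5:144134627-144134686, plus strand: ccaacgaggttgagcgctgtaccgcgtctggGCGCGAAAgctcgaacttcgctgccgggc
Pole2, chr6:93435319-93435378, minus strand: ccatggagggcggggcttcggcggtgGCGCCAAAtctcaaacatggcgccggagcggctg
Mcm7, chr12:22163197-22163256, minus strand: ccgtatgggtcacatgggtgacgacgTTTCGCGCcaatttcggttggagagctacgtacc
Pole2, a subunit of DNA polymerase epsilon, and Mcm7, a helicase subunit, both fell by 1.28. A match is a description of letters, not a bound site. Within each list the median change of genes with and without the element was close: -1.25 and -1.34 for TTTGAA in mitosis genes, and -1.11 and -0.96 for the E2F site in replication genes.

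Repair genes that act with replication fell too, though not all. Of 23 homologous recombination and Fanconi genes, 14 fell and 1 rose (median -0.80), and in DMSO 15 fell and 2 rose (median -0.86). Xrcc2, which acts in recombination repair, read 7.46, 7.67 and 7.70 at 6 h and 5.20, 5.86 and 5.17 at 24 h. The times did not overlap, at -2.20 ± 0.20 (adjusted p = 5.05e-08, n = 3). Exo1, the nuclease that resects broken ends, fell by 1.30 and Rad54l, a DNA-dependent motor protein of the same repair, by 1.47. Mre11, of the complex that senses double-strand breaks, fell by 1.88 to near the floor, and by 1.20 with values under log2 4 set to log2 4. The riser was Atr, the kinase that answers stalled forks (0.51 ± 0.15, adjusted p = 0.00776), and without AA 6 h replicate 2 the risers were 2. The share that fell, 60.9%, compares with 27.5% of all genes tested.

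**Figure D2:**
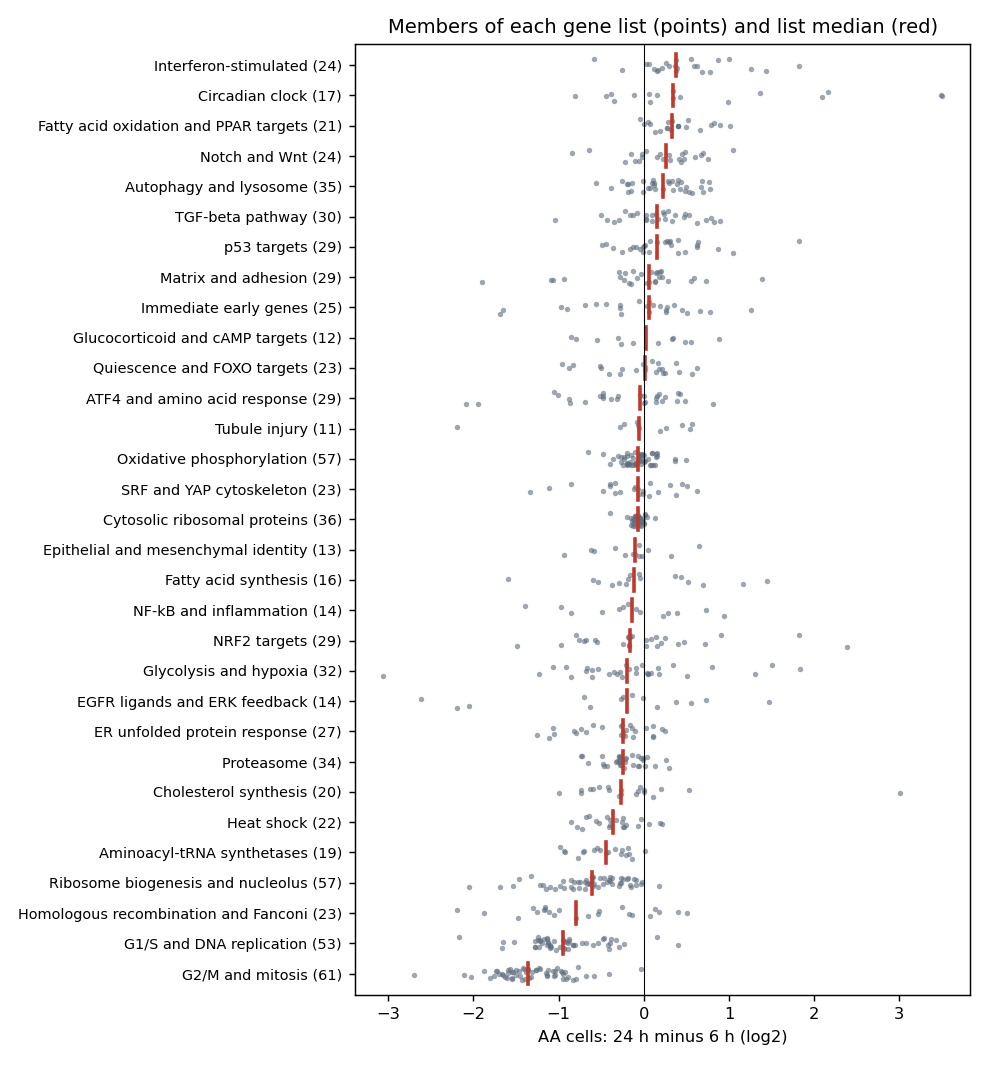
Log2 fold change from 6 h to 24 h in AA cells for the tested members of each gene list (points, number tested in brackets) with the list's median (red bar). Mitosis and replication genes lie lowest, at medians of -1.36 and -0.94, and interferon-stimulated, clock and fatty acid oxidation genes have medians of 0.38, 0.34 and 0.33.

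The genes that build ribosomes fell as a group, while the ribosomal proteins hardly moved. Of 57 ribosome biogenesis and nucleolar genes, 46 fell and 0 rose (median -0.61), and in DMSO 46 fell and 1 rose (median -0.55). Rrp12, which exports pre-ribosomes from the nucleus, read 8.89, 9.01 and 8.91 at 6 h and 6.64, 7.21 and 6.82 at 24 h. This was a fall of 4.13-fold without overlap (-2.05 ± 0.12, adjusted p = 4.72e-10, n = 3). Mrto4, a ribosome assembly factor, fell by 1.68, the rRNA methyltransferase gene Emg1 by 1.53 and Polr1e, a subunit of RNA polymerase I, by 1.46. Of 36 genes for cytosolic ribosomal proteins, 5 fell (Rpsa, Rps23, Rps24, Rps28 and Rpl35) and 1 rose (Rpl24), and the largest of these changes was -0.20, in Rpsa. Those counts depended on scaling and on single arrays: 20 fell with centred arrays, 0 without AA 6 h replicate 3, and 3, 2 and 1 without AA 24 h replicates 1, 2 and 3. The riser was lost with centred arrays, with no filter on low values, and without AA 6 h replicate 2 or 3 or any AA 24 h array. In DMSO 8 fell and 0 rose. Rps24, at -0.13, was at 0.11 when its probe sets were averaged.

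The E-box CACGTG, a palindrome bound by MYC and by other factors, was in 18 of 53 biogenesis promoters (34.0%) and in 10.2% of all. It is in capitals below for 3 of the genes that fell.
Rrp12, chr1:250655283-250655342, minus strand: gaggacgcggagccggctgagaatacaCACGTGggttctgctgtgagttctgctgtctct
Lyar, chr14:76802823-76802882, minus strand: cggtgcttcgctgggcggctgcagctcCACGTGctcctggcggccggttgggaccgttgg
Bysl, chr9:20880331-20880390, plus strand: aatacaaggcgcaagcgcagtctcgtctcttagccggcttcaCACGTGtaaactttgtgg
Lyar, a nucleolar zinc finger protein, fell by 1.32, and Bysl, which acts in making the small subunit, by 1.10. The Myc level itself did not pass: it read 7.92, 8.41 and 8.31 at 6 h and 8.14, 7.84 and 7.83 at 24 h (-0.28, adjusted p = 0.143). Biogenesis genes with the E-box had a median of -0.62 and those without it -0.61. The same search found the E-box in 2 of 14 clock gene promoters (14.3%), near the share of all promoters. Clock genes with it had a median of -0.05 and those without it 0.385.

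Enzymes that charge tRNAs fell in 14 of 19 cases with 0 rising (median -0.44), led by Yars1 (-0.98 ± 0.08), Nars1 (-0.93) and Cars1 (-0.92), the synthetases for tyrosine, asparagine and cysteine. In DMSO 9 of them fell and 1 rose. Of 29 ATF4 and amino acid response genes, 13 fell and 3 rose (in DMSO 11 and 4), and without AA 24 h replicate 2 the risers were 6. Mthfd2, a mitochondrial enzyme of the folate cycle, fell by 2.08 ± 0.30. Slc7a5, the LAT1 transporter of large amino acids, read 8.39, 8.53 and 8.39 at 6 h and 6.37, 6.61 and 6.49 at 24 h. The times were separate, at -1.95 ± 0.16 (adjusted p = 1.44e-08, n = 3). The serine pathway genes Shmt2 and Psph fell by 1.05 and 1.01. Herpud1, Cebpb and Chac1 rose, by 0.25, 0.48 and 0.81.

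Chaperones of several compartments were lower at 24 h. Of 27 genes of the unfolded protein response of the endoplasmic reticulum, 17 fell and 1 rose (Herpud1), with a median of -0.24. Creld2, a reductase induced by that response, read 11.50, 11.36 and 11.74 at 6 h and 10.29, 10.21 and 10.33 at 24 h, without overlap (-1.26 ± 0.08). Hyou1, a chaperone of the endoplasmic reticulum, fell by 1.11, its co-chaperone Dnajc3 by 1.06 and the signal peptidase gene Sec11c by 1.05. In DMSO 21 of the 27 fell. The Herpud1 rise was small: 0 genes of this list rose with centred arrays or without AA 6 h replicate 3, AA 24 h replicate 1 or AA 24 h replicate 3, and 3 rose without AA 6 h replicate 1. Of 22 heat shock genes, 17 fell and 1 rose (Hspb1, 0.19, adjusted p = 0.0499), with a median of -0.36. With any 1 of the 6 arrays left out, or with centred arrays, 0 rose. In DMSO 12 fell and 3 rose. Stip1, which passes clients from HSP70 to HSP90, fell by 0.85 ± 0.11, and Chordc1, an HSP90 co-chaperone, by 0.78. The heat shock count was 11 without AA 6 h replicate 3 and also 11 without AA 24 h replicate 3. Of 34 proteasome subunits, 20 fell and 2 rose (median -0.24), led by Psmd13 and Psmd7 of the regulatory particle at -0.73 each. Without AA 6 h replicate 3, 12 fell and 0 rose. With centred arrays or without AA 24 h replicate 1 or 2 the risers were also 0. In DMSO 10 fell and 3 rose.

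The heat shock element, searched as GAANNTTC on both strands, was in 11 of 18 heat shock promoters (61.1%) and in 5.5% of all tested promoters. It is shown for both heat shock genes whose fall differed from that in DMSO.
Hsph1, chr12:10427311-10427370, plus strand: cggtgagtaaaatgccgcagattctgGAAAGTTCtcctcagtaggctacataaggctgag
Hspd1, chr9:64084228-64084287, minus strand: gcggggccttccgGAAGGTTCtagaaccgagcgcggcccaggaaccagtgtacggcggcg
Hsph1, a nucleotide exchange factor of HSP70, read 11.50, 11.71 and 11.83 at 6 h and 11.00, 11.05 and 10.97 at 24 h in AA, and 11.26, 11.29 and 11.42 then 11.14, 11.04 and 11.10 in DMSO. The 3 highest values of the 12 are the AA 6 h arrays. It fell by 0.67 in AA and by 0.23 in DMSO, a difference of -0.44 ± 0.11 (adjusted p = 0.0439, n = 3). The adjusted p of that difference was above 0.05 in 13 of 20 other settings, at most 0.108. Hspd1, the mitochondrial chaperonin HSP60, fell by 0.56 in AA and 0.26 in DMSO, a difference of -0.30 (adjusted p = 0.0452). With no filter on low values, or without AA 6 h replicate 3, DMSO 6 h replicate 2 or any array of either 24 h group, 0 heat shock genes passed for this difference.

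Output genes of the circadian clock rose. Of 17 clock genes, 8 rose and 2 fell (median 0.34), where 25% and 27.5% of all genes did. Dbp, a transcription factor driven directly by CLOCK and BMAL1, read 3.34, 4.71 and 5.25 at 6 h and 7.99, 8.02 and 7.80 at 24 h. Its 6 h arrays were spread over nearly 2 log2 units around the floor, and all lay far below the 24 h arrays (3.50 ± 0.34, adjusted p = 1.2e-07, n = 3). It had the largest increase among genes above the floor at both times. Per2, of the repressor arm, read 3.77, 4.08 and 3.82 at 6 h and 6.22, 6.19 and 5.75 at 24 h (2.16 ± 0.22), and the mean over its probe sets rose by 1.08. Per3 rose by 2.09 (1.03 with averaged probe sets), the repressor gene Cry2 by 1.36 and Nr1d2, a nuclear receptor that represses Bmal1, by 0.99. Hlf, related to Dbp, rose by 3.49 from near the floor, and by 1.48 with averaged probe sets. Bmal1, the partner of CLOCK in the activator arm, fell by 0.81 ± 0.18. Clock fell by 0.39 on the probe set used, whereas the mean over its probe sets was at -0.17 and did not pass (adjusted p = 0.184). Per1 (0.34, adjusted p = 0.0892) and Nr1d1 (0.07, near the floor) did not pass. With centred arrays 4 clock genes fell, and without AA 6 h replicate 1 the median was 0.19. In DMSO 7 rose and 4 fell, and Dbp rose by 3.70.

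**Figure D3:**
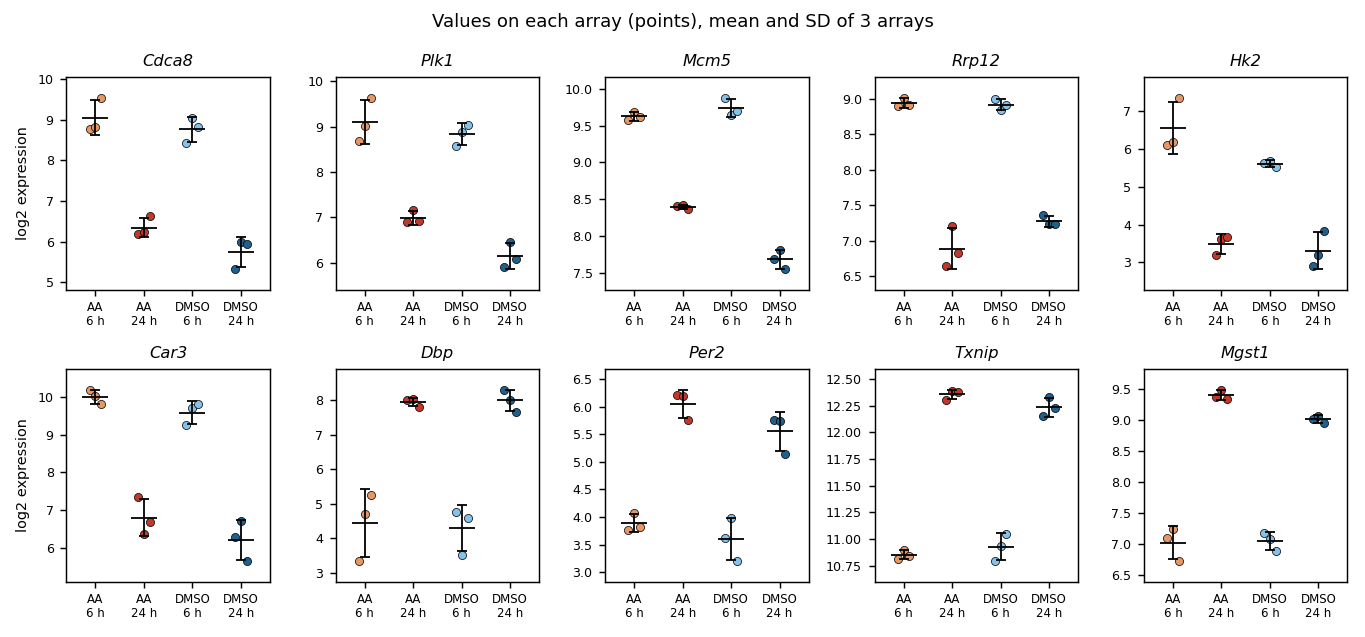
Log2 expression of 10 genes on each array of the AA 6 h, AA 24 h, DMSO 6 h and DMSO 24 h groups (points) with the mean and SD of the 3 arrays. In each panel the AA 24 h arrays do not overlap the AA 6 h arrays, and the DMSO arrays move the same way, as for Dbp, at 3.50 in AA and 3.70 in DMSO.

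Genes of glycolysis and hypoxia fell more often than they rose. Of 32, 15 fell and 5 rose, with a median of -0.19 that was at -0.03 without AA 6 h replicate 3 and -0.11 without AA 24 h replicate 1. Hk2, the inducible hexokinase, read 6.12, 6.20 and 7.36 at 6 h and 3.19, 3.63 and 3.66 at 24 h. It fell to near the floor (-3.06 ± 0.27, adjusted p = 4.42e-08, n = 3), with AA 6 h replicate 3 the highest array. Ankrd37 (-1.23), Pdk1 (-1.07), which shuts pyruvate dehydrogenase, and Slc2a1, the GLUT1 glucose transporter (-0.91), also fell. Txnip, which restrains glucose uptake and is induced by glucose through MLXIP, read 10.81, 10.90 and 10.84 at 6 h and 12.31, 12.38 and 12.38 at 24 h. Its spread within each time was small beside the rise of 2.84-fold (1.50 ± 0.08, adjusted p = 9.99e-11, n = 3). Its relative Arrdc4 rose by 1.83 and Aldoc, an aldolase, by 1.30. In DMSO 11 of the 32 rose and 10 fell, and the aldolase gene Aldoa fell by 0.28 in AA and rose by 0.22 in DMSO (difference -0.50, adjusted p = 0.0212).

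Fatty acid oxidation rose together: 14 of 21 genes of that pathway and of PPAR targets rose and 0 fell (median 0.33), with 18 rising in DMSO (median 0.56). Pdk4, which spares glucose by blocking pyruvate dehydrogenase, rose by 1.01, and Acadvl, Decr1 and Eci1, enzymes of mitochondrial beta-oxidation, rose by 0.89, 0.82 and 0.79. Of 20 cholesterol synthesis genes, 7 fell and 2 rose (in DMSO 4 and 4). Idi1, Msmo1 and Fdft1, enzymes along the path to cholesterol, fell by 0.99, 0.74 and 0.74. Tm7sf2, a sterol reductase of the same path, went the other way: 7.02, 6.73 and 7.99 at 6 h and 9.97, 10.23 and 10.55 at 24 h, a rise of 8.02-fold without overlap (standard error 0.31 on the log2 scale, adjusted p = 2.57e-07, n = 3), and it rose by 3.28 in DMSO. Among the 16 genes that make fatty acids, 6 were called higher and 4 lower (in DMSO 8 and 2). The desaturase genes Fads1 and Fads2 rose by 1.17 and 0.70, Acss2, which makes acetyl-CoA from acetate, rose by 1.44, and Gpam, the first step to triglycerides, fell by 1.59, with averaged probe sets at -0.95. The fallers were 2 without AA 6 h replicate 3 and also 2 without AA 24 h replicate 1. Of 57 oxidative phosphorylation subunits, 13 fell and 5 rose, with a median of -0.07 (-0.03 without AA 6 h replicate 3), and in DMSO 4 fell and 12 rose. The fallers were 5 without AA 6 h replicate 3 and 20 with centred arrays. The risers were 3 without AA 6 h replicate 2, 2, 3 and 3 without AA 24 h replicates 1, 2 and 3, and 2 with centred arrays.

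Growth factor response genes moved in both directions. Of 14 EGFR ligands and ERK feedback genes, 6 fell (42.9%) and 4 rose (28.6%), where 27.5% and 25% of all genes tested did. In DMSO 6 fell and 6 rose. Etv5, a transcription factor induced by ERK, read 5.75, 5.54 and 5.59 at 6 h and 2.96, 2.95 and 3.12 at 24 h, a fall to near the floor (-2.62 ± 0.21, adjusted p = 1.44e-08, n = 3), and its averaged probe sets fell by 1.31. Dusp6, the phosphatase that turns ERK off, read 9.87, 10.73 and 10.78 at 6 h and 8.22, 8.38 and 8.19 at 24 h. AA 6 h replicate 1 was the lowest of its group and still above all 24 h arrays (-2.20 ± 0.18). Phlda1 fell by 2.05, whereas Spry1, an inhibitor of receptor signalling, rose by 1.47 and the phosphatase gene Dusp1 by 0.55. With averaged probe sets Dusp1 did not pass (0.40, adjusted p = 0.136). Of 25 immediate early genes, 8 rose (32%) and 7 fell (28%), near the shares of all genes tested (25% and 27.5%). In DMSO 2 rose and 8 fell. Egr2 fell by 1.69, Egr1 by 0.56, Klf10 rose by 1.25 and Fos by 0.65 (11.20, 11.41 and 10.68 at 6 h, 11.91, 11.69 and 11.66 at 24 h). Fosl1 stood at 2.08, 4.74 and 4.26 at 6 h and between 2.01 and 2.06 at 24 h, so its fall of 1.65 lies near the floor and did not pass with values under log2 4 set to log2 4 (adjusted p = 0.064). Of 23 cytoskeletal SRF and YAP targets, 7 fell (30.4%) and 5 rose (21.7%), also near those shares. In DMSO 3 fell and 6 rose, and the fallers in AA were 3 without AA 6 h replicate 3. Actg2, a smooth muscle actin, fell by 1.33. The YAP target Ankrd1 fell by 1.11 (adjusted p = 0.0393), and without AA 6 h replicate 3, AA 24 h replicate 1 or AA 24 h replicate 3 it did not pass.

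Of 29 targets of p53, 11 rose (37.9%) and 2 fell, Gadd45a and Ccnk, with a median of 0.16 that was at 0.08 with centred arrays. The fallers were 1 without AA 6 h replicate 1 or AA 24 h replicate 1. In DMSO 8 rose and 9 fell (median 0.02). Ephx1, an epoxide hydrolase, read 8.03, 8.16 and 7.82 at 6 h and 9.62, 9.91 and 9.93 at 24 h, a rise of 3.52-fold without overlap (1.82 ± 0.11, adjusted p = 5.47e-10, n = 3), and it rose by 1.42 in DMSO. Ddb2, which finds bulky adducts for nucleotide excision repair, read 5.95, 6.18 and 6.12 at 6 h and 6.99, 7.06 and 6.82 at 24 h. All 24 h arrays lay above all 6 h arrays (0.88 ± 0.15, adjusted p = 5.67e-05, n = 3). The Ddb2 change in DMSO was 0.20 (adjusted p = 0.251), and the difference of both changes did not pass (0.68 ± 0.21, adjusted p = 0.0805). Notch1 rose by 1.05, the death receptor relative Tnfrsf26 by 0.64 and the cyclin gene Ccng1 by 0.25. Ccng1 did not pass with centred arrays (0.17, adjusted p = 0.0617) or without AA 24 h replicate 3 (adjusted p = 0.0561). Cdkn1a, the p21 inhibitor, stood at 11.97 ± 0.14 at 6 h and 12.04 ± 0.05 at 24 h in AA, with overlapping arrays (0.07, adjusted p = 0.532). In DMSO it fell by 0.36, from 11.30, 11.35 and 11.23 to 11.01, 11.02 and 10.76, and the difference was 0.44 (adjusted p = 0.0716). Mdm2, which degrades p53, was at -0.12 (adjusted p = 0.408), and its other probe sets at 0.12 and -0.32.

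Antioxidant genes under NRF2 also split, with 10 of 29 lower (34.5%) and 6 higher (20.7%), not far from the 27.5% and 25% of all genes tested. In DMSO 8 were lower and 9 higher. Hmox1, the heme oxygenase, read 6.80, 7.56 and 7.15 at 6 h and 5.91, 5.31 and 5.84 at 24 h (-1.48 ± 0.26), and Srxn1 and Nqo1, enzymes of peroxiredoxin repair and quinone reduction, fell by 0.97 and 0.79. Mgst1, a glutathione transferase of membranes, read 7.09, 7.25 and 6.73 at 6 h and 9.38, 9.49 and 9.34 at 24 h, a rise of 5.21-fold without overlap (2.38 ± 0.13, adjusted p = 1.58e-10, n = 3). NQO1 is known to reduce the nitro group of AA. Its arrays read 12.35, 12.58 and 12.75 at 6 h and 11.40, 11.98 and 11.93 at 24 h, and it fell by 1.04 in DMSO.

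Lysosomal genes rose in 17 of 35 cases of the autophagy and lysosome list, and 3 fell (Wipi2, Atg5 and Atg3, all of autophagosome formation), with a median of 0.23. Lamp2, a membrane protein of lysosomes, read 13.81, 13.76 and 13.23 at 6 h and 14.34, 14.43 and 14.36 at 24 h (0.78 ± 0.10). With centred arrays 5 fell. The hydrolase genes Glb1, Ctsd and Gaa rose by 0.76, 0.70 and 0.68, and in DMSO 16 of the list rose and 6 fell. Of 24 interferon-stimulated genes, 13 rose and 1 fell (Bst2), with a median of 0.38, and in DMSO 12 rose. Mx2, an antiviral GTPase, read 3.51, 3.36 and 3.64 at 6 h and 4.31, 5.11 and 6.54 at 24 h. Its 24 h arrays were spread over more than 2 log2 units, and it rose by 1.82 ± 0.40 with all arrays and by 1.21 without AA 24 h replicate 3. Gbp2, a guanylate-binding protein, rose by 1.44, the ubiquitin-like Isg15 by 1.26 and Ifi44 by 1.01. Among 14 NF-kB genes, 5 fell and 2 rose (in DMSO 5 and 4), and 8 fell when genes below the filter were included. The hyaluronan-binding Tnfaip6 fell by 1.39, with averaged probe sets at -0.70, and the adhesion molecule gene Icam1 rose by 0.95.

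Matrix and differentiation genes changed without a common direction. Of 29 matrix and adhesion genes, 10 rose (34.5%) and 6 fell (20.7%), where 25% and 27.5% of all genes tested did. In DMSO 8 rose and 8 fell, and with centred arrays 5 rose in AA. Lama3 and Lamb3, chains of laminin-332 of basement membranes, fell by 1.90 and 1.07, and Fn1, fibronectin, by 0.93. Lama3 read 8.47, 9.03 and 9.06 at 6 h and 6.97, 6.94 and 6.95 at 24 h. Timp3, an inhibitor of matrix proteases, rose by 1.39. Col1a1 fell by 1.08 and Postn, periostin, by 1.28. These are also fibroblast markers: 4 of the 10 on the array were at log2 4 or more, and their summed level was 14.82 to 15.22 at 6 h and 14.57 to 15.03 at 24 h. The part of such cells in these falls was not tested. Of 30 TGF-beta pathway genes, 11 rose and 4 fell (in DMSO 10 and 6), with Id2, a target of BMP signals, at 0.90, the decoy receptor gene Bambi at 0.82 and the ligand gene Bmp4 at 0.79. The risers were 7 with averaged probe sets, and the fallers 8 with centred arrays and 2 without AA 24 h replicate 2. Tgfb1 fell by 0.50 (adjusted p = 0.0243), and did not pass without AA 6 h replicate 3, AA 24 h replicate 2 or AA 24 h replicate 3. Of 24 Notch and Wnt genes, 11 rose and 1 fell (Wnt4), where in DMSO 9 rose and 5 fell. The risers in AA included the Notch target Hes1 (0.69) and Znrf3, which removes Wnt receptors (0.75). Without AA 24 h replicate 3 Wnt4 did not pass. The fallers were 3 without AA 6 h replicate 3 and with centred arrays, 2 without AA 6 h replicate 1 or AA 24 h replicate 2, and 4 without a filter on low values. Of 23 quiescence and FOXO genes, 4 rose (17.4%) and 5 fell (21.7%), both under the shares of all genes tested. The fallers were 3 without AA 6 h replicate 3 and 3 with averaged probe sets. In DMSO 5 rose and 4 fell. Cdkn2c, an inhibitor of cyclin-dependent kinases, fell by 0.83, and Ccnd1, cyclin D1, rose by 0.56. Of 12 glucocorticoid and cAMP targets, 4 rose and 4 fell (33.3% each). The risers were 2 with averaged probe sets and the fallers 2 without AA 24 h replicate 3. In DMSO 5 rose and 4 fell. Tsc22d3, the glucocorticoid-induced leucine zipper, rose by 0.88, and Fkbp5, a co-chaperone of its receptor, fell by 0.80, with averaged probe sets at -1.47.

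Few genes of tubule identity could be followed. Of 23 proximal tubule genes on the array, 5 were tested, and in DMSO 2 of these rose and 1 fell. Ggt1, the brush border enzyme that splits glutathione, read 6.93, 6.70 and 7.78 at 6 h and 4.59, 4.68 and 3.77 at 24 h. It fell by 6.90-fold without overlap (-2.79 ± 0.28, adjusted p = 1.66e-07, n = 3). Gatm, which makes the creatine precursor, rose by 1.60, and by 0.80 with probe sets averaged. The water channel gene Aqp1 rose by 1.66 from the floor and did not pass with values under log2 4 set to log2 4 (adjusted p = 0.545). Among 11 injury genes, 5 rose and 2 fell (in DMSO 4 and 4), and with centred arrays 5 fell. Cd44, a hyaluronan receptor of injured tubules, read 8.51, 8.68 and 9.16 at 6 h and 6.64, 6.59 and 6.55 at 24 h, a fall of 4.57-fold (-2.19 ± 0.27, adjusted p = 2.28e-06, n = 3). Of 13 genes of epithelial and mesenchymal identity, 4 fell and 2 rose (in DMSO 3 and 2). Snai1, a repressor of epithelial genes, fell by 0.61 and the junction gene Ocln rose by 0.65. The risers were 0 without AA 6 h replicate 2, and 1 without AA 6 h replicate 1 or AA 24 h replicate 3 and with centred arrays. Vim, vimentin, stayed between 15.18 and 15.35 on all 6 arrays (-0.05, adjusted p = 0.592).

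The largest changes outside these lists were mostly shared with solvent cells. Car3, a carbonic anhydrase, read 10.20, 10.02 and 9.81 at 6 h and 7.34, 6.37 and 6.68 at 24 h. This was the deepest fall among genes above the floor at both times (-3.21 ± 0.25, adjusted p = 1.01e-08, n = 3), and the DMSO change was -3.38. With its probe sets averaged the fall in AA was 2.22. Slc17a6, a vesicular glutamate transporter, fell by 3.17, Rap1gap2, a regulator of the RAP1 GTPase, by 2.98, Mlf1 by 2.56, Cep128, a centriole protein, by 2.55 and Ak4, an adenylate kinase of mitochondria, by 2.27. In DMSO these were at -1.80, -3.04, -3.74, -2.99 and -2.36. Sapcd2 fell by 2.41 and the splicing factor gene Snrpa by 2.35. Among genes that fell to near the floor were Mylk3, a myosin light chain kinase (-3.70), Abhd2 (-3.30) and Aldh3a1, an aldehyde dehydrogenase (-3.07). With values under log2 4 set to log2 4 these were at -2.60, -2.68 and -2.13. The DMSO changes of Sapcd2, Snrpa, Mylk3, Abhd2 and Aldh3a1 were -3.27, -2.00, -2.92, -3.08 and -2.92. The averaged probe sets of Ak4 were at -1.16.

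On the rising side, Rtn1, a reticulon, read 6.16, 5.47 and 4.58 at 6 h and 7.84, 8.22 and 8.07 at 24 h, with a wide 6 h group wholly below the 24 h group (2.64 ± 0.24). Cxadr, the tight junction protein that serves as receptor of coxsackieviruses, read 7.50, 6.69 and 5.58 at 6 h and 9.04, 9.07 and 9.13 at 24 h. Its 24 h arrays lay within 0.1 of each other while the 6 h arrays spread over nearly 2 log2 units (2.49 ± 0.30). Mfsd13a rose by 2.44, Rasgrp3, an activator of RAS and RAP1, by 2.44, Klhl15, a ubiquitin ligase adaptor, by 2.41, Thnsl2 by 2.37, Selenbp1, a methanethiol oxidase, by 2.37 and the deubiquitinase gene Usp11 by 2.29. Near the floor, Adhfe1 rose by 3.57, Sult1c2, a sulfotransferase, by 2.53, the autophagy gene Atg10 by 2.51 and Serping1, the C1 inhibitor of complement, by 2.48. In DMSO, Rtn1, Cxadr, Klhl15 and Usp11 rose by 2.71, 1.98, 1.60 and 2.72, and Adhfe1, Atg10 and Serping1 by 3.01, 2.89 and 1.06. With low values set to log2 4, Adhfe1 and Sult1c2 rose by 2.81 and 1.26. The averaged probe sets of Usp11 and Adhfe1 rose by 1.32 and 2.15. By gene span in RefSeq, genes that rose at least 2-fold had a median of 32.8 kb, those that fell 22.7 kb and all tested genes 24.3 kb.

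The change with time differed between AA and DMSO for 219 genes by the limma test of the difference, with 1800 at an unadjusted p under 0.05. For 131 (1.45% of genes tested) the AA change lay above the DMSO change and for 88 (0.976%) below. The number depended on single arrays. It was 458 without AA 6 h replicate 1 and 96 without AA 6 h replicate 3. Without AA 24 h replicates 1, 2 and 3 in turn it was 94, 22 and 83. Without DMSO 6 h replicates 1, 2 and 3 in turn it was 330, 32 and 100, and without DMSO 24 h replicates 1, 2 and 3 it was 130, 86 and 123. With centred arrays, 72 genes lay above and 106 below, so this balance follows the scaling.

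Of the 131 genes above, 94 had a negative log2 fold change in both treatments, smaller in size in AA. A positive one in both was found for 6, and opposite signs for 31. These counts go by sign alone, whether or not the change in either treatment passed its own test. Cell cycle genes made up a part: 16 of 61 mitosis genes, 15 of 53 replication genes and 4 of 23 recombination genes passed above, and 0 of them below. The difference was positive for all 61 mitosis genes (median 0.64) and 52 of 53 replication genes (median 0.53). Recombination genes were mixed, with 16 positive and 7 negative (median 0.10). Other lists lay mostly below 0, among them cholesterol synthesis (19 of 20 genes, median -0.345) and fatty acid synthesis (14 of 16, -0.31). So did heat shock (19 of 22, -0.17), proteasome (28 of 34, -0.15) and oxidative phosphorylation genes (45 of 57, -0.09). Of these negative lists, 2 heat shock genes passed below and 0 others. The mitosis count was 7, 4, 2, 8 and 9 without AA 24 h replicate 1, AA 24 h replicate 2, DMSO 6 h replicate 2, DMSO 6 h replicate 3 and DMSO 24 h replicate 1 respectively. The replication count was 3 without AA 6 h replicate 3, 2, 1 and 4 without AA 24 h replicates 1, 2 and 3, 2 and 5 without DMSO 6 h replicates 2 and 3, 6 and 3 without DMSO 24 h replicates 2 and 3, and 9 with centred arrays. The recombination count was 0 and 2 without AA 24 h replicates 2 and 3, 1 and 2 without DMSO 6 h replicates 2 and 3, and 2 without DMSO 24 h replicate 1.

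Tube1, epsilon tubulin of centrioles, had the smallest adjusted p among the genes named for this difference. It read 5.77, 6.49 and 6.68 then 4.94, 4.84 and 4.88 in AA, and 6.68, 7.07 and 6.98 then 3.61, 3.41 and 3.94 in DMSO. At 24 h all AA arrays lay above all DMSO arrays, and the difference was 1.83 ± 0.29 (adjusted p = 0.00921, n = 3). Exo1 read 7.53, 7.62 and 7.59 then 6.21, 6.33 and 6.31 in AA, and 7.86, 7.95 and 7.88 then 5.44, 5.59 and 5.44 in DMSO. The 6 h levels were a little lower in AA and the 24 h levels higher, with no overlap at either time (1.11 ± 0.21, adjusted p = 0.0194). Without AA 24 h replicate 2 or DMSO 6 h replicate 2 its adjusted p was 0.0597. Clspn fell to 5.15 to 5.26 in AA and to 3.55 to 4.38 in DMSO (1.39 ± 0.32), and Top2a, the topoisomerase of dividing cells, to 9.95 to 10.11 and 8.66 to 9.44 (0.91 ± 0.22). Mcm5 (0.83 ± 0.18), Chaf1a (0.95) and Mlf1 (1.18) differed in the same sense. The adjusted p of Clspn, Top2a, Mcm5, Chaf1a and Mlf1 was above 0.05 in 9, 12, 5, 15 and 15 of 20 other settings respectively, up to 0.121. With averaged probe sets the Tube1 difference was 0.73.

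**Figure D4:**
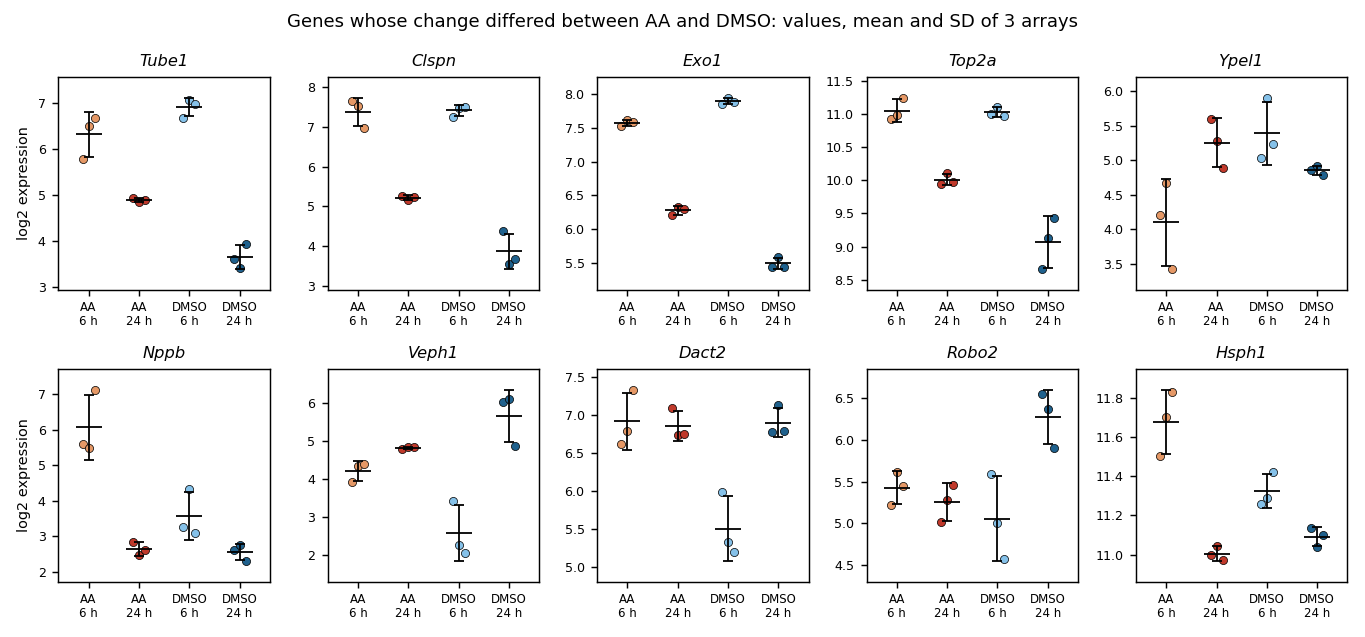
Log2 expression on each array of the AA 6 h, AA 24 h, DMSO 6 h and DMSO 24 h groups (points), with the mean and SD of 3 arrays, for 10 genes whose change with time differed between treatments. Tube1, Clspn, Exo1 and Top2a end higher in AA than in DMSO at 24 h, while Nppb and Hsph1 start higher in AA at 6 h.

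Other genes differed through their 6 h level. Nppb, the B-type natriuretic peptide, read 5.61, 5.49 and 7.13 at 6 h in AA and 2.85, 2.47 and 2.61 at 24 h, against 3.28, 4.33 and 3.09 then 2.62, 2.74 and 2.31 in DMSO. The AA 6 h arrays were the only ones above 5 (difference -2.42 ± 0.49, adjusted p = 0.0212, n = 3), with the others near the floor. With low values set to log2 4 its fall in AA was 2.08. Klf4, a factor of growth arrest, rose by 0.77 in AA and fell by 0.47 in DMSO: it read 5.15, 5.05 and 5.29 then 6.02, 5.99 and 5.81 in AA, and 6.26, 6.59 and 6.44 then 6.02, 6.06 and 5.81 in DMSO. The 24 h levels coincided and the AA 6 h arrays were the low ones (1.24 ± 0.22, adjusted p = 0.0134). Ypel1 rose by 1.15 in AA with -0.54 in DMSO (difference 1.69, adjusted p = 0.0442), a difference that did not pass in 13 of 19 other settings. Dact2, a modulator of Wnt signals, stood at 6.63, 6.80 and 7.34 then 7.09, 6.75 and 6.75 in AA, and rose from 5.99, 5.33 and 5.20 to 6.79, 7.13 and 6.80 in DMSO. Only its DMSO 6 h arrays were low (-1.46 ± 0.28, adjusted p = 0.0194). The glycogen synthase gene Gys1 had the same form (-1.59, adjusted p = 0.0447) and did not pass in 14 of 20. Rbl1, the pocket protein p107, fell by 0.51 in AA and 1.51 in DMSO (difference 1.01, adjusted p = 0.0138).

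In further genes the DMSO change was the larger. Hey2, a Notch-linked repressor, stood at 3.12, 4.39 and 2.90 then 2.86, 2.79 and 2.84 in AA and fell from 5.25, 5.83 and 5.39 to 2.85, 2.80 and 2.85 in DMSO (difference 2.02, adjusted p = 0.0212). Arg2, an arginase, and Depdc7 followed the same form (2.15 and 1.73), and did not pass in 13 of 19 and 10 of 20 other settings. The nuclear receptor gene Nr4a3 fell in both, by 0.98 in AA (adjusted p = 0.000697) and 2.69 in DMSO (difference 1.71). With low values set to log2 4 its change in AA was 0 (adjusted p = 1). Arg2, Hey2 and Nr4a3 were near the floor at 24 h, and with low values set to log2 4 their differences were 0.50, 1.36 and 0.75. Robo2, a guidance receptor of ureter budding, stood between 5.01 and 5.61 on all 6 AA arrays and rose from 5.59, 5.01 and 4.57 to 6.55, 6.37 and 5.91 in DMSO (-1.40 ± 0.33, adjusted p = 0.0324). Veph1 rose by 3.07 in DMSO from near the floor, with 0.60 in AA (adjusted p = 0.119; difference -2.46). Map2k6, a kinase upstream of p38, rose by 1.08 in DMSO near the floor and was at -0.30 in AA (difference -1.38). With low values set to log2 4 the differences of Veph1 and Map2k6 were -1.08 and -0.12, and with averaged probe sets that of Robo2 was -0.77. Zc3h6 rose in both, by 2.27 in AA and 3.43 in DMSO (-1.16). The differences of Robo2, Zc3h6 and Map2k6 did not pass in 10 of 20, 11 of 20 and 9 of 19 other settings.

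At 72 h in AA, values of the leading genes were as follows. Cdca8 read 5.92, 5.92 and 6.14 and Plk1 5.68, 5.74 and 5.78, all below their 24 h arrays. Rrp12, at 6.91, 6.91 and 6.81, lay within its 24 h range. Mthfd2 read 7.50, 7.62 and 7.97, between its 6 h and 24 h arrays, and Tm7sf2 7.30, 7.91 and 7.61, below all of its 24 h arrays. Ephx1 and Notch1 were higher than at 24 h, at 12.73, 12.87 and 12.99 and at 9.33, 9.20 and 9.10. Dbp stayed at 7.64, 7.67 and 7.80. On the AA 72 h arrays the 3' minus 5' difference of the actin control probe sets was larger, at 1.85, 2.16 and 1.99. On the AA 24 h arrays it was 1.27, 1.18 and 1.18, so RNA quality may differ between these times. Tests of 72 h belong to no comparison here.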

How the data were processed

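Total RNA of NRK-52E cells was made into biotinylated cRNA for Affymetrix rat arrays, per the labels' protocols. Each probe set has 1 value per array, on the log2 scale, as deposited by the authors. GCRMA made them, per the submitters' processing notes, with version and settings not given in the sources used here. GCRMA sets weak probe sets to a floor, so low values understate or overstate fold changes. No detection calls were used.

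Of 31099 probe sets, 57 were controls, 20826 had 1 symbol (20758 matched by gene number to RefSeq, GRCr8), 436 several and 9831 none. All 18 arrays were fitted with 6 group means in limma 3.58.1 (R 4.3.3) with lmFit and eBayes(trend=TRUE), with 12 residual and 7.27 prior degrees of freedom. The contrasts were AA 24 h minus AA 6 h, the same for DMSO, and their difference, with Benjamini-Hochberg adjustment over 9015 genes. The median SD within groups was 0.11. Precision is limited by the number of arrays.

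The comparison, the gene lists and the rule for named genes were chosen with earlier results of these data known. Named were the 12 largest changes each way above the floor and 5 near it among called genes whose arrays did not overlap, up to 4 called members of each list, the 6 largest differences each way, and a preset group of genes. Of that group Hmgcs1 and Rrm2 are not analysed here, having no probe set with 1 symbol. Of loop, distal and collecting duct genes 0 were tested, of endothelial and leukocyte markers 1 each, and of 10 fibroblast markers 4.

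On simulated data of 9015 genes with known changes in AA 24 h against 6 h, recovery was 46.3% for 67 genes moved by log2 0.5, 97% for 67 moved by 1 and 100% for 66 moved by 2, and 5.81% of calls were false. As a difference from DMSO, 22.4%, 80.6% and 98.5% were recovered. A far smaller share of genes was moved in the simulation than the 52.5% called in the data, so these figures need not hold for the data. Alternatives were centred arrays, no filter, a filter at log2 5, values under log2 4 set to log2 4, averaged probe sets, no trend, only the arrays compared, the replicate number as a block, and each array left out.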

Additional observations from a re-analysis of the deposited data

Results flagged for a closer look

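The change from 6 h to 24 h differed between AA and DMSO cells, by the limma test of the difference, for 219 genes. Each value here is the AA log2 change minus the DMSO log2 change of 1 of 20 genes chosen by the rule for named genes and for which that test passed. Values above 0 were found for Arg2 (2.15), Hey2 (2.02), Tube1 (1.83), Depdc7 (1.73), Nr4a3 (1.71), Ypel1 (1.69), Clspn (1.39), Mlf1 (1.18), Exo1 (1.11), Chaf1a (0.95), Top2a (0.91) and Mcm5 (0.83). Values below 0 were found for Veph1 (-2.46), Nppb (-2.42), Gys1 (-1.59), Dact2 (-1.46), Robo2 (-1.40), Map2k6 (-1.38), Zc3h6 (-1.16) and Hsph1 (-0.44). Tube1 passed in all 20 other settings and Nr4a3 in the 18 where it was tested. Nr4a3 was not tested with the filter at log2 5 or with averaged probe sets. Its probe set averaged log2 2.64 over all arrays, near the floor, and its other probe sets averaged 2.11 and 2.40. Of 20 other settings, Chaf1a and Mlf1 did not pass in 15, Gys1 in 14, Hsph1 in 13, Top2a in 12, Zc3h6 in 11, Depdc7 and Robo2 in 10, Clspn in 9, Mcm5 in 5, Dact2, Exo1, Hey2 and Nppb in 2 and Veph1 in 1. Of 19, Arg2 and Ypel1 did not pass in 13 and Map2k6 in 9. The test also passed for other genes that the report names: Klf4 (1.24), Rbl1 (1.01), Cry2 (0.70), Aldoa (-0.50) and Hspd1 (-0.30). Of the clock list, which holds Cry2, 0 genes passed above with centred arrays, no filter, averaged probe sets, only the arrays compared or the replicate block. The same held without AA 6 h replicate 3, DMSO 6 h replicate 2 or 3, or any array of either 24 h group. Of the glycolysis list, which holds Aldoa, 0 passed below without AA 24 h replicate 2 or DMSO 6 h replicate 2.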

How the results depend on the processing

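The count of genes changed between AA 6 h and 24 h (4729) and both of its directions stayed within 1.5 times in every setting tried. It was 4163 to 4570 with 1 array left out (2252 higher: 1998 to 2137; 2477 lower: 2139 to 2456), and the DMSO count was 4813 to 5017 (higher 2280 to 2539, lower 2420 to 2633). With centred arrays 4227 of 4698 calls were shared with the fit as deposited. Of 166 called genes among the 181 named, 150 passed in every setting, and Rps24 changed direction, to 0.11, with averaged probe sets. The count for the difference of the AA and DMSO changes (219) was 78 with no filter, 138 with no trend and 89 with only the arrays compared, and 22 to 458 with 1 array left out. Its part above 0 (131) was 72 with centred arrays, 44, 81 and 68 under those 3 settings, and 16 to 239 with 1 array left out; its part below 0 (88) was 34, 57 and 21, and 6 to 219. The causes were not tested. Replicate numbers did not pair the samples: deviations of same-numbered AA 6 h and AA 24 h arrays correlated at 0.05, 0.085 and 0.031. With the replicate block 4762 genes were called, 4663 of them shared, and 252 differed between AA and DMSO. Levels near the floor limit folds of dim genes, and the number of arrays limits the precision.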
